A study of Mus musculus with 9 samples.

Results

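Hspa5, Hsp90b1 and Hyou1 encode chaperones of the endoplasmic reticulum, and the XBP1 peaks at these 3 genes were followed through 8 lists of peaks from mouse liver chromatin. A peak belonged to a gene when its midpoint lay inside a fixed mm9 window around that gene, with no use of its score. The windows were chromosome 2 from 34610001 to 34650000 for Hspa5 (40 kb), chromosome 10 from 86140001 to 86185000 for Hsp90b1 (45 kb) and chromosome 9 from 44175001 to 44210000 for Hyou1 (35 kb). Together they held 47 of the 64078 peaks in all lists: 10 at Hspa5, 16 at Hsp90b1 and 21 at Hyou1.

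The chromatin came from livers of wildtype C57Bl6-J mice and was enriched using antibody M-186 against XBP1, with 1 library and 1 peak list for each condition. In 3 conditions an adenovirus expressing a short hairpin RNA against Xbp1 (shXBP1) had been given 7 days before: shXBP1 basal liver, and shXBP1 liver 6 h or 48 h after partial hepatectomy, an operation that takes out the larger part of the organ. The unsilenced livers were taken 6 h or 48 h after partial hepatectomy, 6 h or 48 h after a sham operation, or without operation (basal). Per the labels' protocols, operations took place at 8 weeks of age and clodronate liposomes, which deplete phagocytic cells, were injected before adenovirus. A control hairpin virus against LacZ is named there, but which unsilenced livers received it, if any, is not given in the sources used here, nor is whether a library stands for 1 animal or several. The shXBP1 lists held 177, 4325 and 102 peaks for basal, 6 h and 48 h, and the unsilenced lists between 2482 and 23087 peaks. Read depth is not known, no condition has a replicate, and the variation among animals is therefore unknown for every value below. XBP1 left after silencing and other signal precipitated by the antibody cannot be told apart in the shXBP1 lists. The input library was not analysed here.

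XBP1 is a transcription factor that drives much of the unfolded protein response. It is made in its active form when the stress sensor IRE1 splices Xbp1 messenger RNA. Unfolded protein in the endoplasmic reticulum also releases ATF6, and both factors act on promoters of folding genes through related elements. Hspa5 encodes BiP (GRP78), the Hsp70 chaperone that binds nascent chains and holds the stress sensors inactive. Hsp90b1 encodes GRP94, the Hsp90 of the same compartment, and Hyou1 encodes GRP170, a large Hsp70-like protein that serves BiP as nucleotide exchange factor. The liver secretes most plasma proteins and relies on this machinery.

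The promoters of Hspa5 and Hsp90b1 are shown because the endoplasmic reticulum stress element in them is the one through which these genes are known to answer unfolded protein. No promoter of Hyou1 was analysed here. In the stress element the CCAAT part is bound by NF-Y and the CCACG part by ATF6 or XBP1. The sequences are from RefSeq (GRCm38.p6), 250 bases before to 50 bases after the gene start, 5′ to 3′ on the strand of the gene. Hspa5 is at chr2:34771840-34772139 on the plus strand and Hsp90b1 at chr10:86705395-86705694 on the minus strand. Capitals mark each match to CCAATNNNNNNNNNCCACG on either strand.
Hspa5: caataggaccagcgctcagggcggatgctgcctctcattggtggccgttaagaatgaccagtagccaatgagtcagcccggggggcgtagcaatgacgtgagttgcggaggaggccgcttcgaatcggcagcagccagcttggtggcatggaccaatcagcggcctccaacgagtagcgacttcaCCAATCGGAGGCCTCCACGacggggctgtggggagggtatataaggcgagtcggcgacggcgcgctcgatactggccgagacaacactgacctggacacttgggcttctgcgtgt
Hsp90b1: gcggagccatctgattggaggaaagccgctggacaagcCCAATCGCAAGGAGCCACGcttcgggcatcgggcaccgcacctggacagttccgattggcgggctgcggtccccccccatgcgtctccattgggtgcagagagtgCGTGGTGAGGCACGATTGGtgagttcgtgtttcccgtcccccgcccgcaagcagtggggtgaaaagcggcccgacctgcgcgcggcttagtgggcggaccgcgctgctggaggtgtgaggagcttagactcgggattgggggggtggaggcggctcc
These coordinates are of another build than the peaks, and no position was converted, so the data at hand do not place a promoter inside a peak.

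Hspa5 had 1 match, from 65 to 47 bases before the gene start. Hsp90b1 had 2 matches, from 212 to 194 bases before the start on the strand of the gene and from 107 to 89 bases before it on the opposite strand. Of the 32851 promoter entries in the same table, 39 (0.119%) held a match. The part CCAAT alone matched 4 times in Hspa5 and 6 times in Hsp90b1, on both strands and with the copies inside the full element counted. It was present in 37.4% of all promoters. ACGTG, the core of XBP1 binding sequences, matched once in Hspa5, and not in Hsp90b1, and was present in 19.6% of all promoters. Neither TGACGTGG (0.676% of promoters) nor ATTGGNCCACG (0.0365%) was found in either of the 2 promoter sequences on either strand. In a list of 20 genes of the unfolded protein response, these 3 chaperones included, 18 had a promoter entry and 2, Hyou1 among them, were not searched. The full element was present in 8 of the 18, namely Calr, Canx, Creld2, Dnajc3, Hsp90b1, Hspa5, Pdia6 and Syvn1, and ATTGGNCCACG in Dnajb11 and Herpud1. A match describes letters in this stretch and does not show a bound site.

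Each of the 3 loci carried a peak in all 8 lists, shXBP1 livers included. Among tiles of the same length laid along the chromosomes, a peak of every list was found in 0.0806% of 40 kb tiles, 0.0906% of 45 kb tiles and 0.0718% of 35 kb tiles. The highest-scoring peak of each locus, called the main peak here, was at the same place in every list. Of the 28177 regions obtained by merging the peaks of all lists, 53 (0.188%) had a peak of every list, and the main peaks of Hspa5, Hsp90b1 and Hyou1 were in 3 of them. The bases shared by all 8 main peaks formed a core of 531 bp at Hspa5 (chromosome 2, 34627274 to 34627804, mm9). The core was 487 bp long at Hsp90b1 (chromosome 10, 86168112 to 86168598) and 434 bp long at Hyou1 (chromosome 9, 44187290 to 44187723). Main peak midpoints differed between lists by at most 226 bp at Hspa5, 438 bp at Hsp90b1 and 185 bp at Hyou1. In RefSeq gene order (GRCm38.p6) Hspa5 lies between the protein-coding genes Gapvd1 and Rabepk, and Hyou1 between Vps11 and Slc37a4, so a site in a window need not belong to the chaperone gene.

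**Figure D1:**
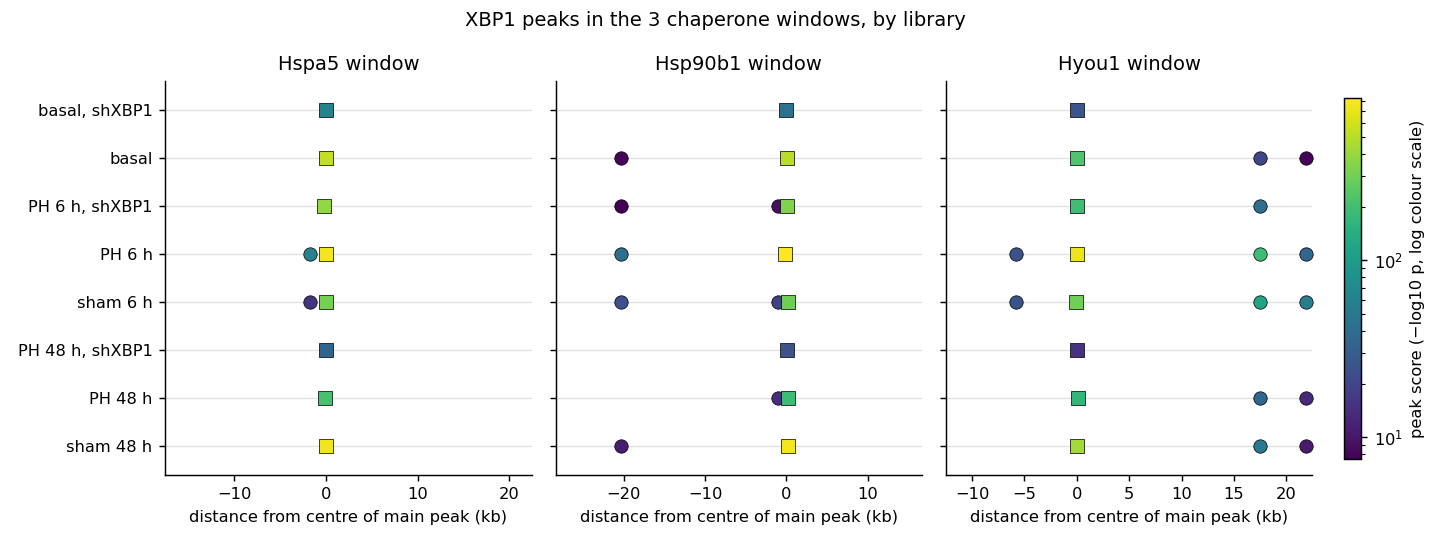
XBP1 peaks in the windows of Hspa5, Hsp90b1 and Hyou1 in each of the 8 libraries (rows; PH, partial hepatectomy), by distance in kb from the centre of the main peak core; squares are main peaks, circles other peaks, and colour gives the score on a log scale. Negative distances are toward lower chromosome coordinates, whatever the strand of the gene. The main peak was present in all 8 rows of each panel, while the sites at -1.7 kb of Hspa5 and -5.8 kb of Hyou1 had peaks in the hepatectomy and sham rows of 6 h alone.

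The score of a peak is the authors' own value from peak calling. Its scale is not stated in the sources used here and was read from its values as −log10 of a p-value. On that reading each added unit stands for a p-value smaller by a factor of 10. The score describes and ranks peaks inside a list and is not compared between lists. The Hspa5 main peak had the highest score of the whole list in 4 libraries and that of Hsp90b1 in 2. In 6 of the 8 lists, therefore, no peak in the genome scored above the main peaks in these windows. Hyou1 held no first place.

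The Hspa5 main peak scored 59.45 in shXBP1 basal liver and 542.08 in basal liver, rank 1 in both lists. At 6 h it scored 377.07 in shXBP1 hepatectomy liver (rank 1), 768.20 in unsilenced hepatectomy liver (rank 3) and 310.62 after sham (rank 2). At 48 h it scored 33.67 in shXBP1 hepatectomy liver (rank 1), 211.11 in unsilenced hepatectomy liver (rank 5) and 754.18 after sham (rank 2). The main peak in the Hspa5 window was thus among the 5 highest-scoring peaks of every list, whatever the length of the list.

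The Hsp90b1 main peak was at rank 2 in both basal lists, with 43.66 in shXBP1 liver and 502.54 in unsilenced liver. At 6 h it scored 336.50 in shXBP1 hepatectomy liver (rank 2), 828.25 in unsilenced hepatectomy liver (rank 1) and 291.95 after sham (rank 6). At 48 h it scored 24.65 in shXBP1 hepatectomy liver (rank 2), 192.84 in unsilenced hepatectomy liver (rank 9) and 773.19 after sham (rank 1). The main peak in the Hsp90b1 window therefore stood within the first 10 ranks of all 8 lists, as that of Hspa5 did.

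The Hyou1 main peak scored 26.19 in shXBP1 basal liver (rank 9 of 177) and 225.44 in basal liver (rank 20 of 2482). At 6 h it scored 196.46 in shXBP1 hepatectomy liver (rank 22 of 4325), 730.13 in unsilenced hepatectomy liver (rank 6 of 22071) and 300.22 after sham (rank 4 of 23087). At 48 h it scored 14.62 in shXBP1 hepatectomy liver (rank 15 of 102), 165.02 in unsilenced hepatectomy liver (rank 24 of 7212) and 430.26 after sham (rank 15 of 4622). Hyou1 was within the first 10 ranks in 3 lists: both unsilenced 6 h lists and the short shXBP1 basal list. Of the 24 main peaks, 23 were among the highest-scoring 10% of their list, and the exception was Hyou1 in shXBP1 liver 48 h after hepatectomy, at 14.7%.

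**Figure D2:**
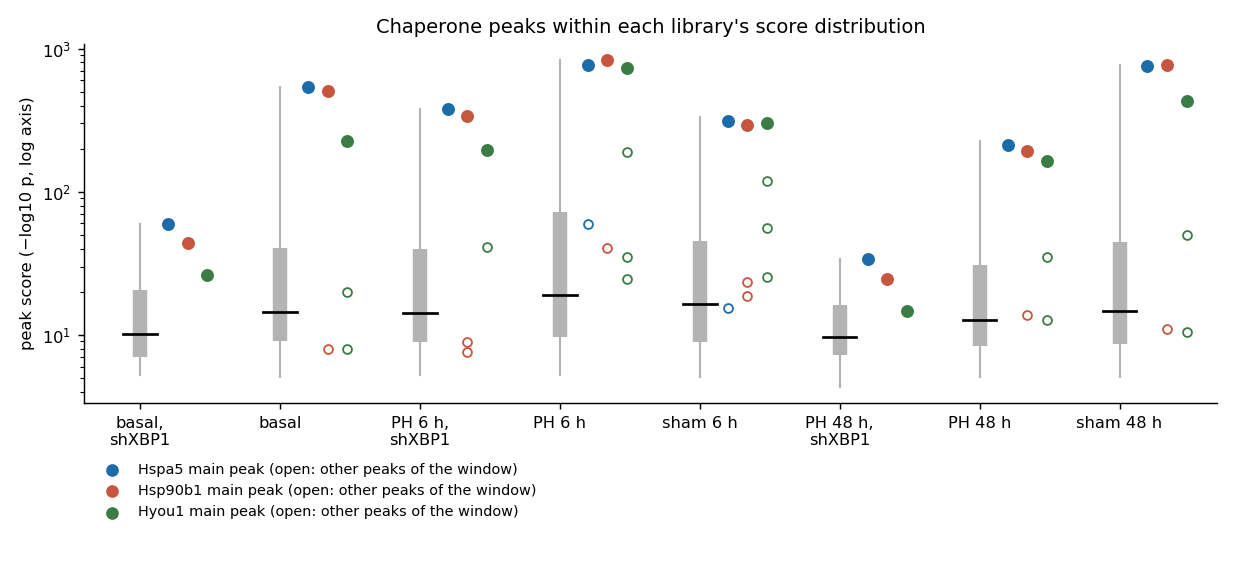
Peak scores on a log axis, with the range (thin grey line), the 10th to 90th percentile (thick grey bar) and the median (black line) of every list; filled points are the main peaks of Hspa5, Hsp90b1 and Hyou1 and open points the other peaks of their windows. The main peaks stood near the top of each list, with Hyou1 the lowest of the 3 genes in 7 of 8 lists.

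Among the 3 genes, Hspa5 scored highest in 6 lists and Hsp90b1 in 2, hepatectomy at 6 h and sham at 48 h. Hyou1 scored lowest in 7 lists. The exception was sham at 6 h, where Hsp90b1 scored lowest. With 1 library each, none of these orders was tested.

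The 53 regions found in all 8 lists give ranks over the same set in every library. Within it Hspa5 kept to ranks 1 to 5 and Hsp90b1 to ranks 1 to 7. Hyou1 was at rank 8 in shXBP1 basal liver and 19 in basal liver. At 6 h it was at rank 16 in shXBP1 hepatectomy liver, 6 in unsilenced hepatectomy liver and 4 after sham. At 48 h it was at rank 13 in shXBP1 hepatectomy liver, 20 in unsilenced hepatectomy liver and 14 after sham. The ranks of a region spanned 4 places over the 8 lists for Hspa5, 6 for Hsp90b1 and 16 for Hyou1. For the other 50 regions the median span was 30.0 places and the smallest was 5. All 3 chaperone loci spanned fewer places than the median of the set, although a region at the top has less room to move on that side.

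**Figure D3:**
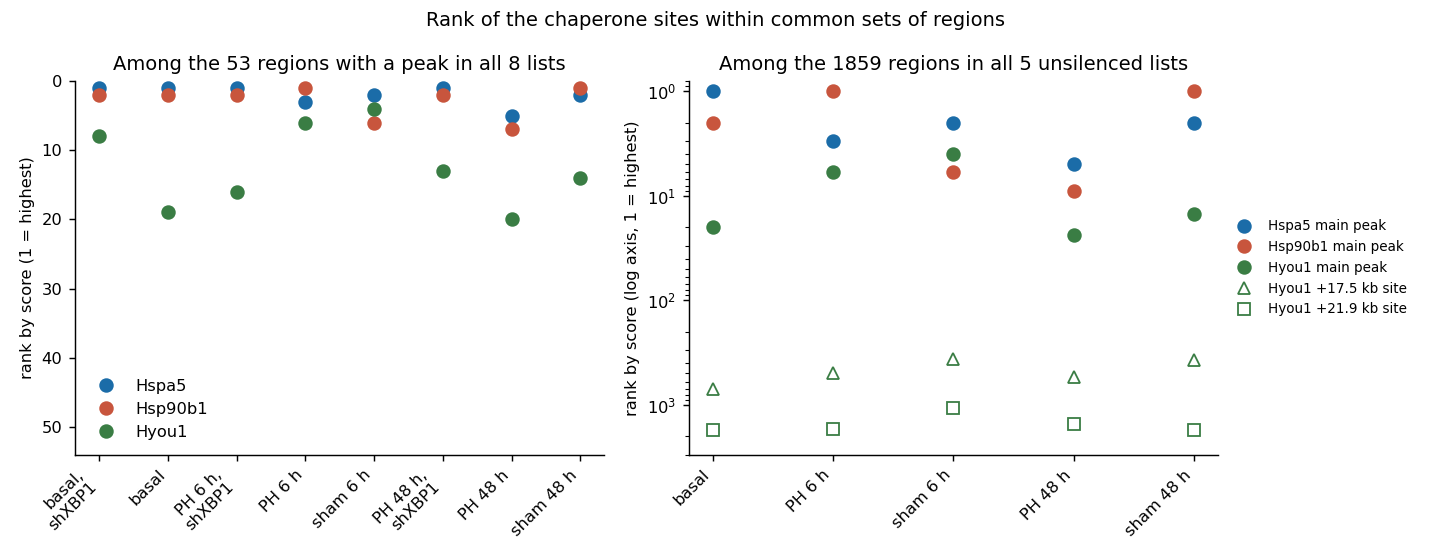
Left, rank by score (1 is highest) of the main peaks of Hspa5, Hsp90b1 and Hyou1 among the 53 regions with a peak in all 8 lists; right, on a log axis, the same peaks and the Hyou1 sites at +17.5 kb and +21.9 kb among the 1859 regions with a peak in all 5 unsilenced lists. Hspa5 and Hsp90b1 stayed within the first 7 of 53, and Hyou1 lay between ranks 4 and 20.

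Of the other regions in all 8 lists, the one closest to both Hspa5 and Hsp90b1 in rank was on chromosome 11 (50138575 to 50140128, mm9). Its rank differed on average over the 8 lists by 5.75 places from Hspa5 and by 5.12 places from Hsp90b1. Sites on chromosome 3 (95754314 to 95755491) and chromosome 6 (28429695 to 28430759) followed for both genes. They were 8.50 and 10.1 places away from Hspa5, and 7.88 and 9.25 places away from Hsp90b1. Closest to Hyou1 were sites on chromosome 10 (127739766 to 127740964, 6.25 places, itself between ranks 12 and 23), chromosome 16 (38562480 to 38564048, 6.88 places) and again chromosome 3 (95754314 to 95755491, 7.00 places). These sites are named by coordinates, since no mm9 annotation was used here.

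The main peaks were also present after silencing of Xbp1. In each of the 3 states the main peaks of all 3 genes had an overlapping peak in the shXBP1 list, 9 of 9 in all. Over all peaks of the unsilenced lists, 4.75% of basal peaks, 18.9% of peaks 6 h after hepatectomy and 0.915% of peaks 48 h after hepatectomy overlapped a shXBP1 peak of the same state. Counterparts were more frequent among high scores. In the highest-scoring 10% of each unsilenced list the share was 39.4% in basal liver, 87.6% at 6 h and 8.03% at 48 h. Among the other peaks scoring at least as high as the Hyou1 main peak of that list, 19 of 19 basal peaks, 3 of 3 peaks at 6 h and 18 of 22 peaks at 48 h (81.8%) had a counterpart.

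The shXBP1 main peaks were narrower than the unsilenced ones of the same state in 9 of 9 pairs, and each lay wholly inside its unsilenced counterpart. The share of all overlapping pairs that were narrower or nested was not computed, so the 9 pairs do not show a trait particular to these loci. At Hspa5 the width was 698 bp in shXBP1 basal liver and 934 bp in basal liver. After hepatectomy it was 1066 bp in shXBP1 liver and 1679 bp in unsilenced liver at 6 h, and 531 bp in shXBP1 liver and 1242 bp in unsilenced liver at 48 h. Hsp90b1 had 593 bp in shXBP1 basal liver against 986 bp in basal liver, and after hepatectomy 940 bp in shXBP1 liver against 2385 bp in unsilenced liver at 6 h and 529 bp in shXBP1 liver against 1086 bp in unsilenced liver at 48 h. Hyou1 had 535 bp in shXBP1 basal liver against 903 bp in basal liver, and after hepatectomy 827 bp in shXBP1 liver against 1691 bp in unsilenced liver at 6 h and 434 bp in shXBP1 liver against 965 bp in unsilenced liver at 48 h. The whole lists moved the same way, with median widths of 103 bp in shXBP1 basal liver and 319 bp in basal liver, 333 bp in shXBP1 and 429 bp in unsilenced liver at 6 h after hepatectomy, and 94.0 bp in shXBP1 and 290.0 bp in unsilenced liver at 48 h. Read depth and the calling of each list may enter into widths, and their part was not tested. All 24 main peaks were wider than the median peak of their own list, by 2.48 to 6.78 times. They were picked for their high score, and their widths were not set against those of other peaks of similar score.

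**Figure D4:**
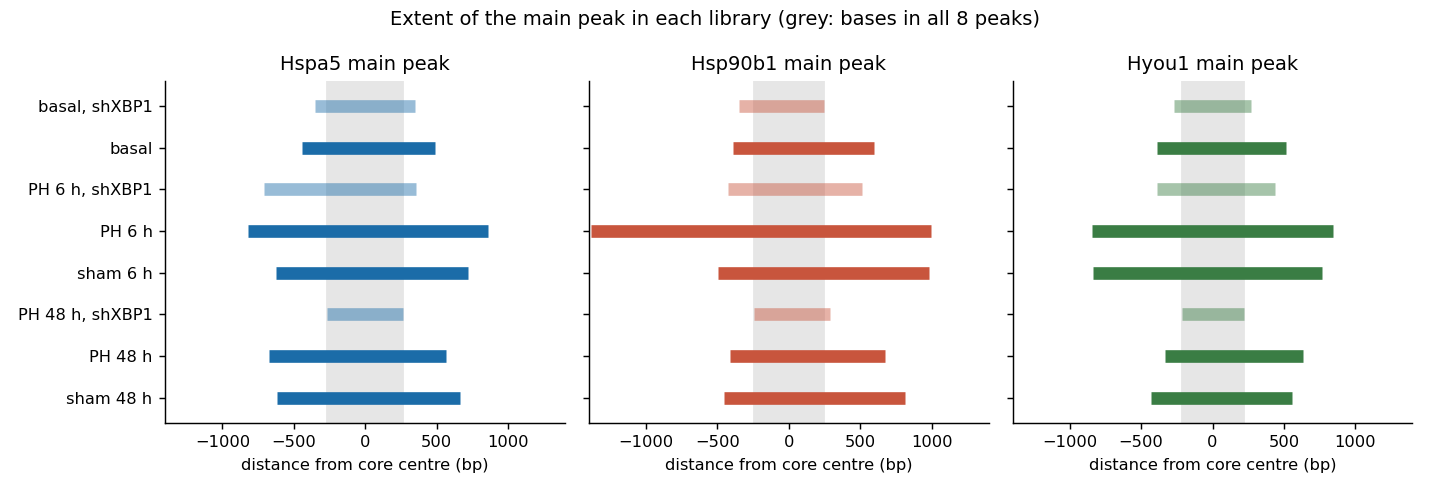
Extent in bp of the main peak of Hspa5, Hsp90b1 and Hyou1 in each library (rows), relative to the centre of the bases common to all 8 peaks (grey band); pale bars are shXBP1 livers. Each pale bar lies within the unsilenced bar of the same state under it, and the widest is Hsp90b1 6 h after hepatectomy, at 2385 bp.

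Beside the main peaks, the windows held 23 further peaks, with scores between 7.53 and 190.72. Their distances from the main peak are negative toward lower chromosome coordinates and do not follow the strand of the gene. Hsp90b1 is on the minus strand, so negative distances there lie in the direction of its transcription. At Hsp90b1 a site at -20.3 kb (chromosome 10, 86147803 to 86148383, mm9) had a peak in 5 lists, with a score of 7.53 in shXBP1 liver and 40.68 in unsilenced liver 6 h after hepatectomy. It scored 23.51 in sham liver at 6 h, 10.93 in sham liver at 48 h and 7.97 in basal liver. In each of these lists it scored far below the main peak. The left flank of the Hsp90b1 main peak, near -1.0 kb, was called as a peak of its own in 3 lists: shXBP1 liver 6 h after hepatectomy (8.97), sham liver at 6 h (18.72) and unsilenced liver 48 h after hepatectomy (13.83). In unsilenced liver 6 h after hepatectomy the same bases were part of the main peak.

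A flanking site of Hspa5 at -1.7 kb (chromosome 2, 34625515 to 34626167) appeared in both unsilenced 6 h lists and nowhere else, with a score of 59.85 after hepatectomy and 15.45 after sham. The Hyou1 site at -5.8 kb (chromosome 9, 44181505 to 44181921) had the same pattern, with 24.58 after hepatectomy and 25.15 after sham. Of all 28177 merged regions, 31.0% had a peak in these 2 lists alone, so 2 of the 8 sites in the chaperone windows is near the background share. The basal and 48 h lists are shorter, and a weak site that fell below the calling threshold there cannot be told apart from an absent one.

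With overlapping peaks merged into sites, Hyou1 had 4 in its 35 kb window, against 2 each at Hspa5 and Hsp90b1. Peaks summed over the lists are a different count, and their order depended on the window. The full windows held 21 peaks at Hyou1, 10 at Hspa5 and 16 at Hsp90b1. Narrowed to their middle 50%, the windows held 8 peaks at Hyou1, 10 at Hspa5 and 11 at Hsp90b1. Sites were not counted again in the narrowed windows. In basal liver the full windows held 1 peak at Hspa5 and 2 at Hsp90b1, where 3.45% of 40 kb tiles and 0.373% of 45 kb tiles held as many. The full 35 kb window of Hyou1 held 3 peaks in basal liver, where 0.012% of tiles of this length held as many. At 48 h it held 3 peaks in unsilenced hepatectomy liver and 3 in sham liver, where 0.358% and 0.13% of tiles held as many. It held 4 peaks in unsilenced hepatectomy liver at 6 h and 4 in sham liver at 6 h, where 1.35% and 1.56% of tiles held as many. The strongest of its further sites lay at +17.5 kb (chromosome 9, 44204573 to 44205344) and had a peak in 6 lists. It scored 19.89 in basal liver. At 6 h it scored 41.17 in shXBP1 hepatectomy liver, 190.72 in unsilenced hepatectomy liver and 118.36 after sham, and at 48 h 34.82 in unsilenced hepatectomy liver and 49.92 after sham. In every one of these lists it was the second-highest Hyou1 peak.

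A further Hyou1 site at +21.9 kb (chromosome 9, 44209083 to 44209640) had a peak in all 5 unsilenced lists and in no shXBP1 list, a pattern found in 1.15% of all merged regions. It scored 7.97 in basal liver, 34.85 in hepatectomy liver and 55.73 in sham liver at 6 h, and 12.67 in hepatectomy liver and 10.52 in sham liver at 48 h. In basal liver it was at rank 2291 of 2482, close to the limit of what was called. Among the 1859 regions with a peak in all 5 unsilenced lists, the +21.9 kb site was at rank 1762 in basal liver. At 6 h it was at rank 1690 in hepatectomy liver and 1084 in sham liver, and at 48 h at rank 1535 in hepatectomy liver and 1742 in sham liver. In the same set the +17.5 kb site was at rank 706 in basal liver, at 498 in hepatectomy liver and 366 in sham liver at 6 h, and at 543 in hepatectomy liver and 370 in sham liver at 48 h. Both sites stood nearer the top in sham than in hepatectomy liver at 6 h, a difference without a replicate. At 48 h this held for the +17.5 kb site alone, and the +21.9 kb site stood nearer the top in hepatectomy liver.

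Of all the peaks in the windows, the shXBP1 lists covered 3 of 6 basal peaks, 5 of 8 peaks 6 h after hepatectomy and 3 of 6 peaks 48 h after hepatectomy, where they covered 4.75%, 18.9% and 0.915% of all peaks of these 3 lists. In basal liver and at 48 h only the main peaks had a counterpart. At 6 h the -20.3 kb site of Hsp90b1 and the +17.5 kb site of Hyou1 had one as well.

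Peaks of hepatectomy liver in these windows were mostly found in sham liver too. All 8 peaks found 6 h after hepatectomy overlapped a sham peak of that time, where 76.9% of all hepatectomy peaks did. At 48 h, 5 of 6 peaks overlapped a sham peak, where 47.1% of all hepatectomy peaks did. The exception was the left flank of Hsp90b1, with a score of 13.83. In the other direction, the sham peak at the -20.3 kb site of Hsp90b1 at 48 h, with a score of 10.93, had no hepatectomy counterpart. All 6 main peaks were among those overlapped, as were 99.9% of the highest-scoring 10% of hepatectomy peaks at 6 h and 92.4% at 48 h.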

How the data were processed

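XBP1 ChIP-seq of mouse liver was used as 8 deposited peak lists, 1 per library. Per the submitters' processing notes the authors used Bowtie2, MACS 1.4.2 and the build mm9. Nothing used here states the settings or the role of the input. The score deposited by the authors was read as −log10 of a p-value, from its values: of scores below 40, between 17.9% and 56.6% per list lay on the steps of −log10 Poisson tail probabilities for a single mean, against 5.14% to 18.6% for 10 times that scale. Coordinates are 1-based. Groups came from the sample titles.

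Peaks were assigned to the windows by midpoint and ranked by score within their list, ties taking the lowest rank. Peaks overlapping by at least 1 bp were merged into regions or called counterparts. Tiles ran along chromosomes 1 to 19 and X. Python 3.11.15, NumPy 2.4.6, pandas 2.3.3, SciPy 1.17.1 and matplotlib 3.10.9 were used, and overlap counts were checked on lists made with a known overlap and with bedtools 2.31.1. No test was run: each condition has 1 library, the states differ in treatment and were not used as replicates of each other, and scores are not compared between lists. The named genes are Hspa5, Hsp90b1 and Hyou1 with every peak in their windows, and for each the 3 regions in all 8 lists closest in rank. The genes, windows, gene list and motifs were chosen with earlier results of these data known. Alternatives were other windows, memberships, score limits, overlaps, rankings and merging distances, and a shortened motif.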

Additional observations from a re-analysis of the deposited data

Results flagged for a closer look

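The rank among the 53 regions found in all 8 lists differed between libraries in opposite directions in different states for Hsp90b1 and Hyou1. For both genes this held between shXBP1 and unsilenced liver, and for Hsp90b1 also between hepatectomy and sham liver. These differences rest on 1 library each and were not tested. For Hyou1 the rank in shXBP1 liver minus that in unsilenced liver was -11 in basal liver, 10 at 6 h and -7 at 48 h after hepatectomy, where a negative value means nearer the top in shXBP1 liver. For Hsp90b1 the same difference was 0, 1 and -5, so its only positive value was 1 place. The rank of Hsp90b1 after hepatectomy minus that after sham was -5 at 6 h and 6 at 48 h.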

How the results depend on the processing

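The presence of a peak in all 8 lists at each of the 3 loci held with every window and score limit tried. Of these settings only the narrowed window could have changed it. The wider settings can only add peaks, and the score limit of 10 lay below the lowest main peak (14.62). The number of peaks depended on the window: with the window doubled it was 23 at Hspa5 against 10 as reported, and 32 at Hyou1 against 21, and the Hyou1 window narrowed to its middle 50% held 8. When counterparts had to share at least 50% of the length of each peak, 4 of 9 shXBP1 main peaks counted as counterparts instead of 9, since the shXBP1 peaks cover between 39.4% and 74.7% of the wider unsilenced ones. With the stress element shortened to CCAATNNNNNNNNNCCA, Hspa5 and Hsp90b1 together had 5 matches instead of 3. Ranked by score per bp of width, 18 of the 24 main peaks stayed among the highest 10% against 23 by score. Those outside were the main peaks of all 3 genes in the shXBP1 basal and shXBP1 48 h lists. In the shXBP1 basal list Hspa5 was at rank 93, Hsp90b1 at 104 and Hyou1 at 148 of 177 peaks. In the shXBP1 48 h list Hspa5 was at rank 79, Hsp90b1 at 95 and Hyou1 at 99 of 102 peaks. Ranks by score per bp were lower in longer lists too. In unsilenced liver 6 h after hepatectomy Hspa5 was at rank 66, Hsp90b1 at 180 and Hyou1 at 84. After sham at 6 h they were at ranks 74, 158 and 189. In unsilenced basal liver Hspa5 and Hsp90b1 kept ranks 1 and 2, and 6 of the 24 ranks did not move by score per bp. Of 95 single ranks recomputed under an alternative, 33 moved, 18 of them by score per bp and 15 by width, and 62 did not. The other summary results moved by less than 1.5 times or less than their counting interval. No paired analysis was possible because no result comes from a test and the groups share fewer than 2 replicate numbers. Read depth is unknown, so sites near the calling threshold limit every statement on absence.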
